A study of Mus musculus with 4 samples.

Results

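The integrin and laminin genes were taken from the mRNA values by name, as the genes for the integrin alpha chains (Itga1 to Itga11 and the lettered chains), for the integrin beta chains Itgb1 to Itgb8 and for the laminin chains Lama, Lamb and Lamc. This gave 37 of 21878 genes, with 26 integrin and 11 laminin genes and 107 of 75959 transcripts, and the values of the transcripts were summed per gene. The samples were C3H10T1/2 cells, a mouse mesenchymal stem cell line derived from C3H embryos, either untreated (replicates 1 and 2) or exposed to 20 μM 5-azacytidine (5-AZA, a cytidine analogue that lowers DNA methylation) for 72 hours and then kept for 21 days in fresh medium (replicates 101 and 102). Both groups are the same line. The study also picked clones of myotube-like cells, and whether the sequenced cells were such clones is not stated. How long the untreated cells were cultured is not given either, so exposure and time in culture cannot be told apart.

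Integrins are receptors of an alpha and a beta chain that span the cell membrane and tie the extracellular matrix to the actin cytoskeleton. Laminins are cross-shaped trimers of an alpha, a beta and a gamma chain and form the sheet-like core of basement membranes. Around a skeletal muscle fibre, laminin with the alpha 2 chain is bound by the integrin of the alpha 7 and beta 1 chains and by dystroglycan, and defects of alpha 2 or alpha 7 cause muscle disease.

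The summed mRNA values were 328410 to 361664 FPKM (sequenced fragments scaled to transcript length and library size) per sample, and the read depth behind a single value is unknown. Of 10 mesenchymal marker genes, 9 were at 1 FPKM or more in both groups and Fap reached at most 0.132 FPKM. The 12 skeletal muscle markers summed to 1.64 and 1.31 FPKM in the untreated and to 823 and 1259 FPKM in the 5-AZA samples. The 8 adipocyte markers summed to 46.8 and 30.3 against 1164 and 1591 FPKM. Called higher were 12 of 12 muscle and 7 of 8 adipocyte markers, against 13.1% of all genes tested. The limit on low values was met only through the 5-AZA level by 8 of the muscle and 1 of the adipocyte markers. RNA of the whole culture was measured, so more cells of a type and more RNA per cell cannot be told apart, and how far these cells account for any change given here was not tested.

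Untreated cells expressed a small set of the integrin and laminin genes strongly and most of them weakly. Itgb1, the partner of many alpha chains, was the highest, with 247 and 240 FPKM. It was followed by Lama4 (50.4 FPKM on average), Itgav (46.8), Lamb2 (42.2), Lamc1 (29.8), Itga6 (28.4), Itga5 (25.4), Itgb5 (23.3) and Lamb1 (17.0). Itgb3 and Itga1 came next at 9.04 and 9.02 FPKM and could not be ordered, since their samples overlapped. FPKM is scaled to length, so these levels can be compared between genes. In all, 14 of the 37 genes reached a mean of 1 FPKM in untreated and 22 in 5-AZA cells. Itgb1, Lama4, Lamb2 and Itgav remained the 4 highest after 5-AZA, and Lamb2 (28.5 and 35.7 FPKM) and Itgav (30.5 and 30.9 FPKM) then overlapped.

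**Figure D1:**
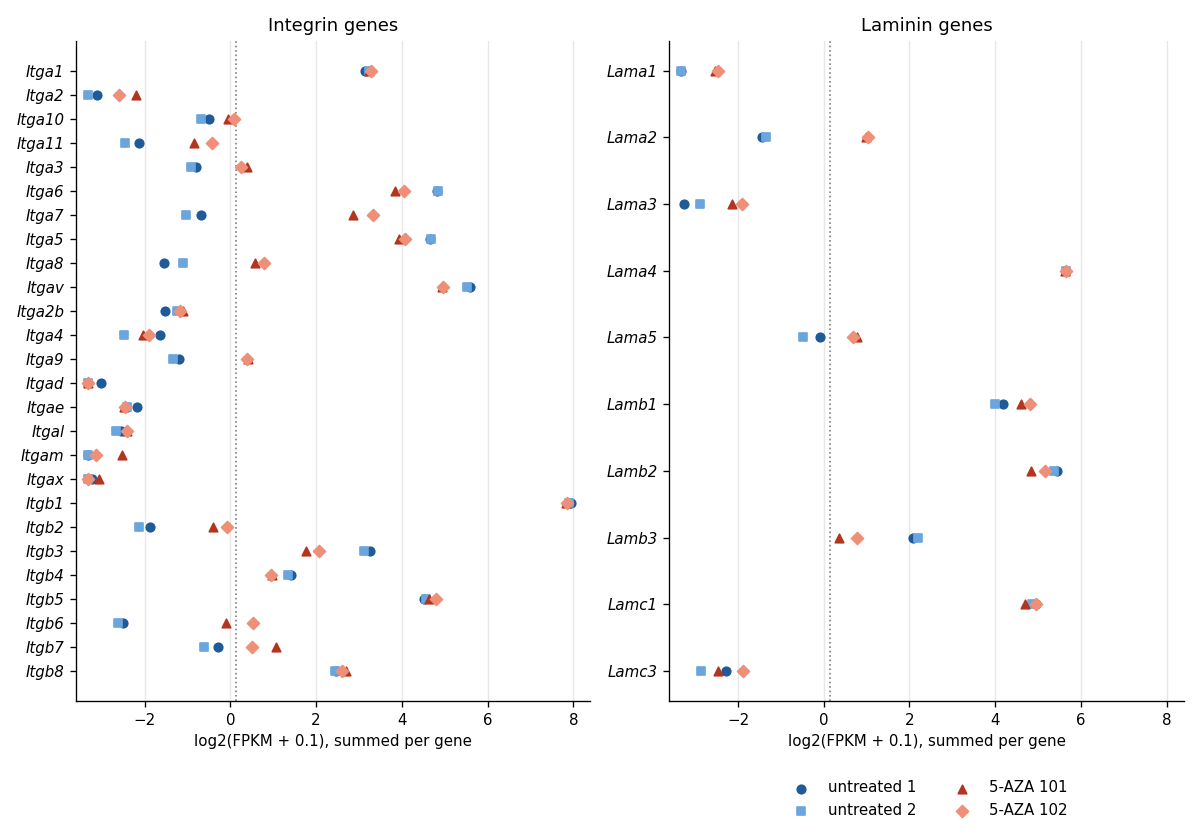
Level of 36 of the 37 integrin (left) and laminin (right) genes in the 4 samples as log2(FPKM + 0.1), with circles and squares for untreated replicates 1 and 2, triangles and diamonds for 5-AZA replicates 101 and 102, and a dotted line at 1 FPKM. Itgb1 is the highest of them in every sample, and Itga7 moves from 0.527 and 0.391 FPKM to 7.12 and 9.92 FPKM.

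The genes called higher after 5-AZA all had a mean below 1 FPKM in untreated cells, and the 2 called lower, Itgb3 and Lamb3, were above it. A gene was tested where its mean over the 4 samples was at least 0.1 FPKM, and limma was fitted to log2(FPKM + 0.1) of all 13199 such genes. It passed the test at an adjusted p-value below 0.05 and was called where the change was also over 2-fold. Of the 37 genes 28 were tested, and 11 of these had a higher and 2 a lower call. Over all genes tested, 13.1% were called higher and 1.32% lower (1724 and 174 genes). At the adjusted p-value alone, 12 of the 28 were higher (18.6% of all genes tested) and 6 lower (5.93%). Both 5-AZA samples lay above both untreated samples in 17 of the 28 (36.8% of all genes) and below them in 8 (25.4%). The median log2 change was 0.22 for the 28 and 0.05 for all genes tested.

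Of the 14 tested genes with at least 1 FPKM in untreated cells, 0 were called higher with limma and 2 lower, against 3.72% and 1.34% of all genes at such levels. Of the 14 below 1 FPKM, 11 were called higher (78.6%), against 46.7% of all genes below it. Itgb6 alone passed the limit on low values only through its level after 5-AZA, so its direction was fixed by that limit and no p-value is given for it. Without such genes 10 of 27 were called higher, against 7.41% of 12130 genes. The calls depended on which sample was left out and on the scaling, and more were lost without a 5-AZA than without an untreated sample. Without 5-AZA replicate 101 there were 3 genes called higher and 0 lower, and without replicate 102 there were 3 and 1. The 3 were Itga7, Itgb6 and Lama2 each time, and the 1 was Itga6, since Itgb3 and Lamb3 had both lost their call. After quantile normalization 4 were called higher (Itga7, Itga8, Itgb6 and Lama2) and 2 lower. Under that scaling the calls over all genes were 1041 higher and 886 lower, or 54.0% higher against 90.8% without it, and the median of all genes moved from 0.05 to -0.12.

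**Figure D2:**
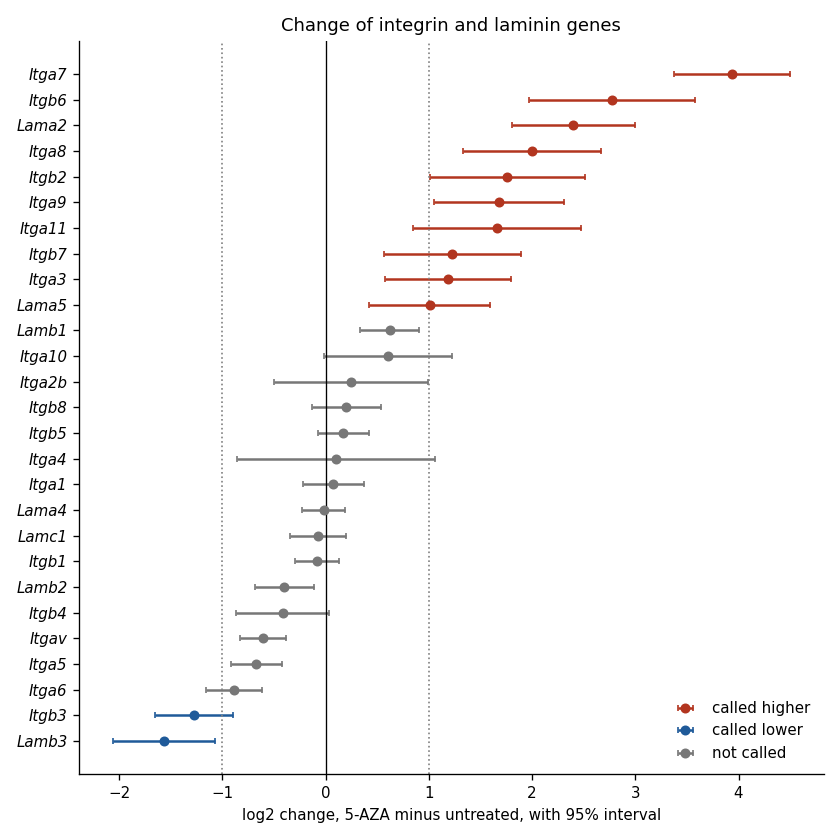
Log2 change between 5-AZA and untreated cells (horizontal axis) of 27 of the 28 integrin and laminin genes tested, with 95% intervals from limma and dotted lines at a 2-fold change. Itga7 (3.94) has the largest rise of these genes and Lamb3 (-1.57) the largest fall.

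DNA methylation in mammals falls on the C of a CG pair, and 5-AZA acts on that mark, so the CG pairs before the annotated starts were counted. RefSeq promoter sequences (GRCm38.p6) were matched by gene symbol for 23 of the 37 genes. The 250 bases before the start listed first in the RefSeq table were read. Itga7, Itga6, Itgb3, Itgb2, Lama4 and Lamc1 were among the 14 genes without a match, so their windows were not read. A median of 11 CG pairs was found in the 23 genes and of 6 in the 27025 genes of the table, and 14 of the 23 held at least 10, against 38.2% of all promoters (91.7% hold at least 1). The 8 called higher that were matched had 0 to 22 CG pairs with a median of 11.5, and the 11 tested but not called had 2 to 21 with a median of 11. Itga3 and Itgb6 have a second listed start, with 5 and 3 CG pairs in place of 22 and 11, and with the last listed start of each gene the 8 had 0 to 19 with a median of 7.5. The letters CAGCTG, which read the same on both strands and form an E box of the kind bound by myogenic factors, were found in 6 of the 23 (Itga1, Itga2b, Itga4, Itga9, Itgb5 and Lamb3) and in 12.8% of all promoters. Methylation itself was not analysed here.

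The windows of 3 genes show this range, with CG pairs in capitals. Lama2 and Itga8 were both called higher and differ in CG pairs (0 and 18), and Itgb1, the highest of the 37 genes in every sample, has 21. The windows are chr10:27616943-27617192 on the minus strand for Lama2, chr2:12301945-12302194 on the minus strand for Itga8 and chr8:128685404-128685653 on the plus strand for Itgb1, each read 5′ to 3′ up to the base before the start.
Lama2: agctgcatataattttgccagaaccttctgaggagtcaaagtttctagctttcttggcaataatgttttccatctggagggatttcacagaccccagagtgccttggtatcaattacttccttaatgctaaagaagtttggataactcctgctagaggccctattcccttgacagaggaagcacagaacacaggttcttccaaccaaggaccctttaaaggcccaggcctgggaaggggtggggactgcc
Itga8: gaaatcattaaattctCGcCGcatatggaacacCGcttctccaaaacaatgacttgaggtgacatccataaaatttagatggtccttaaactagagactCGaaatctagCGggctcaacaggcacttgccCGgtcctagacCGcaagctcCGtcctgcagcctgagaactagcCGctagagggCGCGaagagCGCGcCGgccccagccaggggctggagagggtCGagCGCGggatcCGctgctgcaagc
Itgb1: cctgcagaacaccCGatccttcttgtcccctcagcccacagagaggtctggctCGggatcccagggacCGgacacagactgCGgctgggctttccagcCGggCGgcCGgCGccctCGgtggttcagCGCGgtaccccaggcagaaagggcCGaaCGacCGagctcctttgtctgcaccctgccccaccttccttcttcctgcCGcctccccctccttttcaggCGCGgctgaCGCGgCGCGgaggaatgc

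Among the laminin-binding alpha chains, Itga7 rose and Itga6 fell. Itga7, the main laminin receptor chain of skeletal muscle, had 0.527 and 0.391 FPKM in untreated and 7.12 and 9.92 FPKM in 5-AZA cells, a log2 change of 3.94 (standard error 0.24, adjusted p = 8.58e-06). Its groups were far apart, and it was called under each of the 11 alternatives tried. Itga6, which pairs with Itgb1 or Itgb4, had 28.1 and 28.7 against 14.1 and 16.6 FPKM, a fall of 0.89 on the log2 scale (adjusted p = 7.13e-04). This was just short of 2-fold, and without 5-AZA replicate 102 it was called lower (adjusted p = 0.0328). Itga3 rose from 0.471 and 0.429 to 1.21 and 1.09 FPKM (log2 change 1.18, adjusted p = 0.0124), and without replicate 101 or 102 its adjusted p was 0.0802 and 0.0788.

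Itga7 thus made up 1.81% and 1.33% of the summed FPKM of Itga3, Itga6 and Itga7 in the untreated samples and 31.7% and 36.0% in the 5-AZA samples. Itga6 went from 96.6% and 97.2% to 62.9% and 60.1%. The sum of the 3 genes was 29.1 and 29.5 FPKM in untreated and 22.5 and 27.6 FPKM in 5-AZA cells. With 2 samples against 2, an exact permutation test cannot give a two-sided p below 0.333, so no test of shares is given.

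Itga7 was also the only one of the 37 genes with a transcript called on its own. Of 54 member transcripts tested among 35557, 1 was called higher with limma (2.1% of all transcripts tested) and 0 lower (0.262%). At p below 0.05 before adjustment, 13 lay above and 9 below the untreated level. The share of all transcripts at that p is not given, so these counts cannot be set against a background. Of the 54, 12 met the limit on low values only through their 5-AZA level. The 13 thus include transcripts whose direction was fixed. The transcript called higher, NM_008398.2 of Itga7, had 0.134 FPKM and a value near 0 in the untreated and 5.52 and 7.95 FPKM in the 5-AZA samples. Its untreated mean of 0.067 FPKM lay below the limit, so it was tested only through its 5-AZA level and could only be higher. It held 77.4% and 80.2% of the Itga7 sum after 5-AZA. The predicted transcript XM_006513267.3 held 20.1% and 11.9%, with 1.43 and 1.18 FPKM. Transcripts of a gene share exons, and the authors' quantification can divide reads between them differently in each sample.

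In 4 further genes the sum was divided between transcripts that each held at least 10% of it and a mean of at least 1 FPKM in a group. Other genes, such as Itgb4, were also divided, but without a second transcript that met both limits. NM_008402.3 of Itgav had 41.3 and 35.5 FPKM in untreated and 24.4 and 23.1 FPKM in 5-AZA cells, while XM_006498807.3 had 6.61 and 10.2 against 6.08 and 7.85 FPKM with overlapping groups. NM_016780.2 of Itgb3 had 8.44 and 7.44 against 3.10 and 3.71 FPKM, and XM_006532312.2 had 1.04 and 1.15 against 0.203 and 0.381 FPKM, so both Itgb3 transcripts were lower in both 5-AZA samples. Of the 3 Lamb1 transcripts only NM_008482.2 had groups that did not overlap, with 11.8 and 9.64 against 15.8 and 22.8 FPKM. Of the 2 Lamb2 transcripts only NM_008483.3 did, with 34.05 and 29.3 against 22.9 and 25.96 FPKM. None of these transcripts passed the test, and their adjusted p ranged from 0.0556 (NM_016780.2) to 0.983 (XM_006514993.1).

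Of the 4 alpha chains that bind the RGD motif (arginine, glycine and aspartate) of fibronectin and similar proteins, Itga5 and Itgav fell and Itga8 rose. Itga5, the alpha chain of the classical fibronectin receptor, had 25.2 and 25.7 FPKM in untreated and 15.2 and 16.7 FPKM in 5-AZA cells, a fall of 0.67 on the log2 scale (standard error 0.11, adjusted p = 0.00225). Itgav, which pairs with several beta chains, fell from 47.9 and 45.7 to 30.5 and 30.9 FPKM, by 0.60 (adjusted p = 0.00204). Neither change reached 2-fold, and the groups did not overlap in either gene. Without replicate 101 the adjusted p was 0.0544 for Itga5 and 0.0597 for Itgav, and without replicate 102 it was 0.0484 and 0.0614. Itga8, a receptor chain for nephronectin, rose from 0.242 and 0.365 to 1.39 and 1.62 FPKM (log2 change 2.00, adjusted p = 0.00123), with an adjusted p of 0.0792 and 0.0921 without replicate 101 and 102. Itga2b, the platelet chain, was at 0.248 to 0.368 FPKM in all 4 samples (adjusted p = 0.650, 95% interval -0.50 to 0.99).

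The collagen-binding chains were led by Itga1, with 8.72 and 9.31 FPKM in untreated and 9.33 and 9.68 FPKM in 5-AZA cells (adjusted p = 0.727, 95% interval -0.22 to 0.37). Itga11, a receptor chain for fibrillar collagen in mesenchymal cells, rose from 0.128 and 0.082 to 0.457 and 0.647 FPKM (log2 change 1.66, adjusted p = 0.00955). Itga10, a chain of cartilage cells, had 0.608 and 0.518 against 0.863 and 0.954 FPKM and did not pass (adjusted p = 0.149). Itga2 was at or below 0.119 FPKM in each sample and was not tested. Without replicate 101 or 102 the adjusted p of Itga11 was 0.0664 and 0.0905.

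Of the remaining alpha chains 1 rose. Itga9, which binds tenascin and osteopontin, had 0.334 and 0.294 FPKM in untreated and 1.22 FPKM in both 5-AZA samples (log2 change 1.68, adjusted p = 0.00233). Its adjusted p was 0.0529 and 0.0586 without replicate 101 and 102. Itga4, which binds Vcam1 and fibronectin, was at 0.079 to 0.220 FPKM with overlapping groups (adjusted p = 0.898). The leukocyte chains Itgad, Itgae, Itgal, Itgam and Itgax reached at most 0.120 FPKM in any sample, and none of them was tested.

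Among the beta chains Itgb3 fell and the weakly expressed Itgb2 and Itgb7 rose, while Itgb1 did not pass the test. Itgb3, which forms the vitronectin receptor with Itgav, had 9.48 and 8.60 FPKM in untreated and 3.30 and 4.09 FPKM in 5-AZA cells, a fall of 1.27 on the log2 scale (standard error 0.17, adjusted p = 6.28e-04). Without replicate 101 or 102 it fell by 1.12 and 1.42, and its adjusted p was 0.0651 and 0.0530. Itgb1 had 247 and 240 against 228 and 231 FPKM, and the 95% interval of its log2 change was -0.29 to 0.13 (adjusted p = 0.566). Its share of the summed beta chains was 84.3% to 85.7% in all 4 samples.

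Itgb5, a further partner of Itgav, had 23.0 and 23.6 against 24.9 and 27.7 FPKM (adjusted p = 0.299, 95% interval -0.07 to 0.42). Itgb3 accordingly held 29.2% and 26.7% of the sum of Itgb3 and Itgb5 in untreated and 11.7% and 12.9% in 5-AZA cells. Itgb8, which with Itgav activates latent TGF-beta, had 5.40 and 5.35 against 6.37 and 6.02 FPKM (adjusted p = 0.371). Itgb4, the partner of Itga6 in hemidesmosomes, had 2.55 and 2.46 against 1.87 and 1.83 FPKM and did not pass (adjusted p = 0.170).

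Itgb6, an epithelial partner of Itgav, was at 0.077 and 0.062 FPKM in untreated and at 0.829 and 1.35 FPKM in 5-AZA cells, and the limit on low values fixed its direction. Itgb2, the common beta chain of leukocyte integrins, rose from 0.172 and 0.127 to 0.650 and 0.843 FPKM (log2 change 1.76, adjusted p = 0.00468). Itgb7, the partner of Itga4 and Itgae in lymphocytes, rose from 0.722 and 0.552 to 1.98 and 1.32 FPKM (log2 change 1.23, adjusted p = 0.0148). Without replicate 101 or 102 the adjusted p was 0.0554 and 0.0723 for Itgb2 and 0.152 and 0.10 for Itgb7, whose log2 change without replicate 101 was 0.95.

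Markers of the cell types that normally carry these chains were read beside them. Of 14 leukocyte markers 9 were not tested and 2 were called higher (Cd68, a lysosomal protein of macrophages, with 1.16 and 1.47 against 2.27 and 3.69 FPKM, and Cd79a, listed at 0 against 0.288 and 0.159 FPKM), and the list summed to 4.73 and 6.05 FPKM in untreated and 7.08 and 9.33 FPKM in 5-AZA cells. The defining genes Adgre1, Cd3e and Cd3g were listed at 0 in every sample, and Ptprc reached 0.063 FPKM in 1 sample. The 10 epithelial markers summed to 0.967 and 0.877 against 20.1 and 25.9 FPKM, most of it Krt8 (15.3 and 19.4 FPKM) and Krt18. Cldn7 and Esrp1 were listed at 0, and Epcam reached 0.301 FPKM. Cdh1 was lower in both 5-AZA samples, with 0.500 and 0.497 against 0.157 and 0.367 FPKM. It was not called (limma, adjusted p = 0.174) and was the only 1 of the 6 tested with a negative log2 change. Of the epithelial markers 4 were called higher, and their part and that of the leukocyte markers in the values of Itgb2, Itgb7 and Itgb6 was not tested. The 8 endothelial markers summed to 0.758 and 0.557 against 4.12 and 3.57 FPKM, with Kdr and Tie1 at 0. Of these, 3 were called higher, namely Emcn (1.95 FPKM on average after 5-AZA), Tek (1.26 FPKM) and Cdh5 (0.348 FPKM). Cd79a, Epcam, Krt18, Krt19, Emcn and Cdh5 met the limit on low values only through their 5-AZA level, so their direction was fixed. Without such markers, those called higher were 1 of 4 leukocyte, 1 of 2 epithelial and 1 of 2 endothelial markers. The shares over all genes were 13.1% with and 7.41% without such genes. The 7 platelet markers summed to 1.89 and 1.57 against 6.91 and 9.90 FPKM, led by Pf4 after 5-AZA, with Gp1ba at 0. The 5 Schwann cell markers summed to 3.58 and 3.84 against 1.31 and 2.14 FPKM, with Foxd3 at or near 0.

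**Figure D3:**
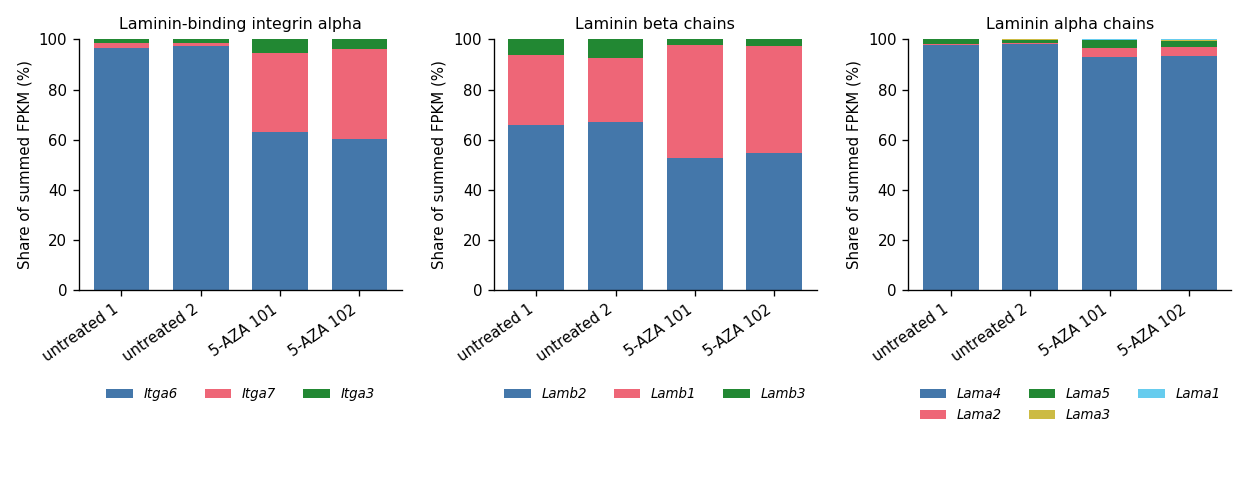
Share of summed FPKM (vertical axis, percent) held by each laminin-binding integrin alpha chain, laminin beta chain and laminin alpha chain, with 1 bar per sample. Itga7 grows from under 2% to over 31% of its group. Lamb1 grows from 27.7% and 25.7% to 45.0% and 42.8% of the beta chains, and Lama4 holds over 92% of the alpha chains in every sample.

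Of the laminin alpha chains, the abundant Lama4 did not pass the test and the muscle chain Lama2 rose. Lama4, typical of vessel walls and mesenchymal cells, had 50.2 and 50.6 FPKM in untreated and 49.1 and 50.3 FPKM in 5-AZA cells (adjusted p = 0.905, 95% interval of the log2 change -0.23 to 0.19). Lama2, the alpha chain of the muscle basement membrane, rose from 0.272 and 0.291 to 1.89 and 1.93 FPKM, a log2 change of 2.40 (standard error 0.26, adjusted p = 2.21e-04), and was called under each of the 11 alternatives. Its promoter window is the one shown without a CG pair. Lama2 was nevertheless 3.57% and 3.58% of the summed alpha chains after 5-AZA, against 93.0% and 93.2% for Lama4. Lama5, a chain of mature basement membranes, rose from 0.837 and 0.620 to 1.61 and 1.49 FPKM (log2 change 1.01, adjusted p = 0.0218). Its change lay at the 2-fold limit, and without replicate 101 or 102 its adjusted p was 0.165 and 0.155, and without untreated replicate 2 its log2 change was 0.82. Lama1 was listed at 0 in both untreated samples and at 0.072 and 0.082 FPKM after 5-AZA. Lama3 reached at most 0.167 FPKM, and neither was tested.

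Of the 2 abundant beta chains Lamb1 rose and Lamb2 fell, the latter at an adjusted p just below the limit. Lamb1, the common beta chain of embryonic laminins, rose from 18.1 and 15.8 to 24.3 and 27.9 FPKM, by 0.62 on the log2 scale (adjusted p = 0.00674, under 2-fold). Lamb2, the beta chain of synaptic and vascular basement membranes, fell from 43.1 and 41.3 to 28.5 and 35.7 FPKM, by 0.40 (adjusted p = 0.0480). Lamb1 made up 29.5% and 27.7% of the sum of both in untreated and 46.0% and 43.9% in 5-AZA cells. Without replicate 101 or 102 the adjusted p was 0.101 and 0.145 for Lamb1 and 0.148 and 0.0650 for Lamb2, whose log2 change was -0.24 without replicate 101. Lamb3, a chain of the epidermal laminin, had 4.11 and 4.48 against 1.18 and 1.62 FPKM, a fall of 1.57 (standard error 0.22, adjusted p = 9.09e-04), with an adjusted p of 0.0673 and 0.0536 without replicate 101 and 102.

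Lamc1, the gamma chain of most laminins, had 30.8 and 28.8 FPKM in untreated and 25.9 and 30.9 FPKM in 5-AZA cells, with overlapping groups (adjusted p = 0.711, 95% interval -0.34 to 0.20). Lamc3 was at 0.038 to 0.171 FPKM and was not tested.

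Outside these families, 31 of 34 adhesion adaptor genes, which link integrin tails to actin and to kinases, were tested, and 4 were called higher and 0 lower with limma, a share like the 13.1% of all genes tested. Their median log2 change was 0.06. Nrap and Parvg met the limit only through their 5-AZA level, and of the other 29 adaptors 2 were called higher (6.90%, against 7.41% of all such genes). The largest rise was that of Itgb1bp2 (melusin, a muscle protein that binds the tail of integrin beta 1), from 0.328 and 0.053 to 17.2 and 22.9 FPKM (log2 change 6.29, adjusted p = 1.35e-05). Nrap, which anchors actin at muscle attachment sites, was listed at 0 in both untreated samples and at 0.978 and 1.72 FPKM after 5-AZA. Parvg, a parvin of blood cells, was at 0 and 0.049 against 0.912 and 1.61 FPKM. Tns4, an epithelial tensin, was the fourth called (adjusted p = 0.00284) and is named after its values were seen. The broadly expressed adaptors Tln1, Vcl, Ilk, Ptk2 and Pxn were not called, and Tln1, for example, had 59.4 and 56.0 against 52.3 and 59.9 FPKM.

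Of 28 genes of the basement membrane and of further laminin receptors, 22 were tested and 4 were called higher and 0 lower with limma. Of all genes tested 13.1% were called higher, and the median log2 change of the 22 was 0.22. Bcam, a receptor for laminins with the alpha 5 chain, was at 0.035 and 0 against 1.53 and 2.74 FPKM and was tested only through its 5-AZA level. Without Bcam, 3 of 21 genes were called higher (14.3%, against 7.41% of all genes not tested only through that level). Col15a1, a collagen that borders the muscle basement membrane, rose from 5.87 and 4.01 to 31.5 and 42.0 FPKM (log2 change 2.88, adjusted p = 1.62e-05). Smoc1 was also called (adjusted p = 0.00136). The following genes were chosen after their values were seen. Ntn4 was the fourth called (adjusted p = 0.0149). Nid1, which bridges laminin and collagen IV, rose from 29.8 and 28.9 to 53.7 and 61.5 FPKM, by 0.97 on the log2 scale (adjusted p = 2.34e-04). Dag1, the gene of dystroglycan, fell from 61.9 and 64.0 to 42.5 and 47.8 FPKM, by 0.48 (adjusted p = 0.00877).

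Of 27 other integrin ligands 21 were tested, and 8 were called higher and 1 lower, against 13.1% and 1.32% of all genes tested. Their median log2 change was 0.51. F11r and Icam2 were tested only through their 5-AZA level, and of the other 19 ligands 6 were called higher (31.6%, against 7.41% of all such genes). F11r, a junction molecule that binds Itgal with Itgb2, was at 0.071 and 0.014 against 1.94 and 2.79 FPKM. Icam2, a further ligand of that receptor, was listed at 0 in both untreated samples and at 1.06 and 1.02 FPKM after 5-AZA. Npnt, the gene of nephronectin and so of the ligand of Itga8, rose from 0.363 and 0.273 to 2.82 and 3.39 FPKM (log2 change 2.94, adjusted p = 6.51e-05). L1cam was called lower, with 7.79 and 7.47 against 1.81 and 2.89 FPKM (adjusted p = 7.12e-04). Chosen after their values were seen, Fn1, the gene of fibronectin, fell from 323 and 320 to 184 and 227 FPKM, by 0.65 on the log2 scale (adjusted p = 0.00397), and Spp1, the gene of osteopontin, rose from 133 and 123 to 437 and 377 FPKM (adjusted p = 1.12e-05). Without 5-AZA replicate 101 or 102, 1 gene of the adaptors was called in each case, 2 and 1 of the basement membrane genes, and 8 and 6 of the ligands.

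**Figure D4:**
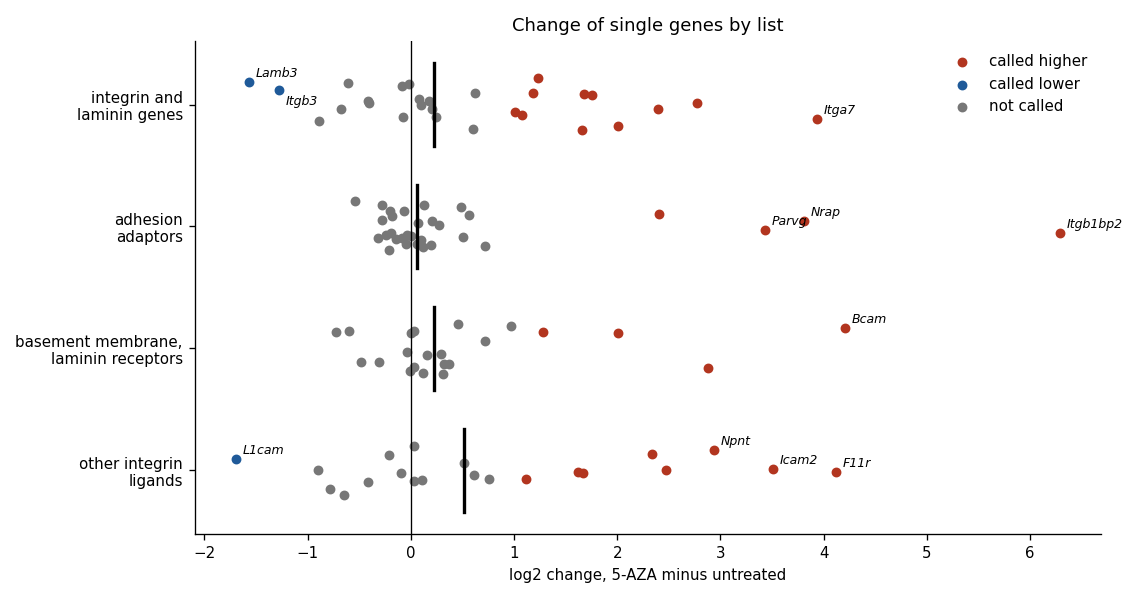
Log2 change between 5-AZA and untreated cells (horizontal axis) of each tested gene in the integrin and laminin families and in the lists of adhesion adaptors, basement membrane genes with laminin receptors, and other ligands, with a black line at the median of each list. Most adaptors lie near 0, and Itgb1bp2 stands at 6.29.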

How the data were processed

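Stranded libraries were made from total RNA of C3H10T1/2 cells (2 untreated and 2 5-AZA samples) after removal of ribosomal RNA. The authors trimmed the reads with Trimmomatic and deposited FPKM values for each RefSeq transcript and RPM values for each circRNA. Their processing notes also list HISAT2, Bowtie2 2.2.9, eXpress 1.5.1 and mm9, without roles. lncRNA values were not used here, since they are paired with no integrin or laminin gene by name.

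Transcripts were summed per gene, and log2(FPKM + 0.1) of genes with a mean of at least 0.1 FPKM was fitted with limma 3.58.1 (lmFit, eBayes with trend) in R 4.3.3, with Benjamini-Hochberg adjustment over all 13199 genes. On that scale the fold change of a weakly expressed gene is understated. Whether replicates are separate cultures is not stated in the labels, so p-values cover the spread between these samples only. The fit was tested on simulated data. There the spreads were shuffled over genes of all levels, so that test does not cover how the fit performs on weakly expressed genes. Of the 37 genes 36 are reported singly, and the other 1 is counted with the set but not reported here; of each other list, up to 3 called genes per direction with the largest change and no overlap between groups are named, besides those said to be chosen after their values were seen, and of transcripts those with at least 1 FPKM and 10% of their gene were considered. Members and lists were chosen with earlier results of these data known. Cdh1 is in 2 lists. Other pseudocounts, limits, scalings, variance estimates, single transcripts and the omission of each sample were tried.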

Additional observations from a re-analysis of the deposited data

How the results depend on the processing

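Of the integrin and laminin genes, 11 were called higher and 2 lower. The number called higher was 2 with a pseudocount of 1 FPKM, 7 without the limit on low values, 4 with a mean of at least 1 FPKM, 4 after quantile normalization and 3 to 10 with each sample left out. Among single transcripts it was 1, and the number called lower was then 0 with limma (9 transcripts at an unadjusted p-value below 0.05). The share of all transcripts at that p-value is not given. Itgb3 and Lamb3 kept their lower call without either untreated replicate and lost it without either 5-AZA replicate. Their log2 changes were -1.12 and -1.36 without replicate 101, and -1.42 and -1.78 without replicate 102. Of the adhesion adaptors 1 was called with a mean of at least 1 FPKM and 1 to 4 with each sample left out, and of the basement membrane genes 1 to 4. Fewer genes are tested under a higher limit, and fewer samples stand behind each fit with 1 left out. The counts fell further without a 5-AZA than without an untreated sample. What caused these shifts was not tested. The ligands called stayed between 6 and 10 under every alternative run. The number of calls over all genes went from 1724 higher and 174 lower to 875 and 86 with a pseudocount of 1 FPKM, 845 and 122 with a mean of at least 1 FPKM, 1179 and 83 without the limit, 1041 and 886 after quantile normalization, and 733 to 1617 and 52 to 184 with each sample left out.

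The log2 change reversed its sign for genes that were not called in Itga1 (-0.0313 after centring on sample medians and -0.0193 after quantile normalization), Itga4 (-0.00671 and -1.21, and -0.32 without untreated replicate 2), Itga10 (-0.37 after quantile normalization) and Itga2b (-0.99 after it). Lamc1 was at 0.0516 without 5-AZA replicate 101, against a range down to -0.20. With the last listed start in place of the first, an alternative chosen after seeing the data, the median number of CG pairs of the genes called higher was 7.5 in place of 11.5. The range of Itga4 with each sample left out was -0.32 to 0.52. Over all alternatives, 241 values of single genes kept their direction and call, 38 lost the call, 1 gained one and 8 reversed. No paired analysis was possible because the groups share no replicate numbers. An edgeR test of circRNA reads was not run, since whole reads were not recovered from the RPM values under the unit check. The number of samples, 2 in each group, limits every result.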

Other observations

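Of the 4295 circRNAs, 4 have an integrin or laminin host gene, and each was detected in 1 sample only. They were circRNA_0358 (421 bases, exonic, 0.0321 RPM in untreated replicate 2) and circRNA_0359 (634 bases, 0.0215 RPM in 5-AZA replicate 101) of Lama4, circRNA_2424 of Itga6 (461 bases, 0.0215 RPM in 5-AZA replicate 101) and circRNA_4165 of Itga9 (0.0213 RPM in 5-AZA replicate 102). RPM values are back-spliced junction reads scaled to library size. None was among the 1360 circRNAs detected in at least 2 samples, so none was tested there. Itgb1, the highest of the 37 genes at 228 to 247 FPKM, had no circRNA listed.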
